A study of Homo sapiens with 16 samples.

Results

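The 10 genes described here encode secreted inflammatory mediators and were taken by symbol, CXCL1, CXCL2, CXCL3, CXCL8, IL6, IL1A, IL1B, CCL2, CCL20 and LIF. Each symbol matched 1 of the 60676 Ensembl identifiers in both count tables, so the set is 10 genes of 60676. All 10 passed the low-count filter, which kept 21569 genes. IL1B passed it through A101D, with 8 libraries of that line and 1 of MeWo at or above the minimum.

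Total RNA was sequenced in 2 human melanoma cell lines, A101D, labelled methionine dependent, and MeWo, labelled methionine independent, with 8 libraries each. All cultures were grown in high-glucose medium lacking methionine and cystine, to which dialyzed serum, glutamine, pyruvate and cystine were added, and either methionine at 200 µM (the control medium) or homocysteine at 200 µM was supplied. The labels do not say which library had which medium, so the groups are the cell line and the range of replicate numbers, 1 to 4 or 5 to 8, and no difference below is assigned to a medium. No label says what separates the number ranges, and they were used with earlier results on these libraries known, in which levels of some genes had differed between them. Nothing in the labels says whether replicates were separate cultures, and p-values measure the spread between these libraries, which may be technical. Each line stands for 1 cell population, and in bulk RNA fewer cells making a transcript cannot be told apart from less transcript per cell.

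Totals ran from 28910881 to 38961862 counts per library. Genes with at least 1 count numbered 34471 in MeWo replicate 2 and 30066 to 31433 in the other 7 MeWo libraries. A101D had 31281 to 33107 such genes in replicates 1 to 4, and 34020 to 34607 for the later numbers. No library repeated another, since the smallest chi-square of any pair, divided by its degrees of freedom, was 2.5 among A101D libraries and 1.97 among those of MeWo. The 10 melanocytic markers (among them MITF, PMEL, MLANA and TYR) were all tested. Their summed level was 2595 to 3616 CPM (counts per 1e6 counts, on library sizes scaled by trimmed mean of M-values) in A101D and 10378 to 11594 CPM in MeWo. PMEL (6596 CPM in MeWo replicates 1 to 4 against 204 in those of A101D) and TYRP1 (2253 against 0.393) made up most of the MeWo sum, while DCT (488 against 1652), S100B (129 against 681) and EDNRB (57.6 against 88.5) were lower in MeWo.

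CXC chemokines with the ELR motif, CXCL1, CXCL2, CXCL3 and CXCL8, signal through CXCR1 and CXCR2 and attract neutrophils, while CCL2 attracts monocytes through CCR2 and CCL20 attracts CCR6-bearing lymphocytes and dendritic cells. IL-1 alpha and IL-1 beta bind the IL-1 receptor, whose adaptor chain activates NF-kB and AP-1, and these factors are known to switch on the chemokine genes and IL6. IL-6 and LIF signal through receptors that share gp130 (IL6ST) and act on JAK kinases and STAT3, and melanoma cells are known to secrete several of these proteins themselves.

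The 4 CXC chemokine genes lie close together on chromosome 4 (GRCh38), CXCL8 at chr4:73740506-73743716, CXCL1 at chr4:73869393-73871242, CXCL3 at chr4:74036589-74038807 and CXCL2 at chr4:74097035-74099293. CXCL8 and CXCL1 are on the plus strand and CXCL3 and CXCL2 on the minus strand. IL1A (chr2:112773915-112784590, minus strand) and IL1B (chr2:112829751-112836903, minus strand) are neighbours on chromosome 2, where CCL20 also lies (chr2:227805739-227817564, plus strand). IL6 is at chr7:22725884-22732002 on the plus strand, CCL2 at chr17:34255218-34257203 on the plus strand and LIF at chr22:30240447-30246851 on the minus strand. All 10 are protein-coding genes in GENCODE release 29, and their values are counts over exons.

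The stretch from 100 to 21 bases before the RefSeq start site (GRCh38.p14) is shown for the 8 genes with a RefSeq entry. For IL1A it is the first of 2 entries. Except for CXCL1, these stretches lie partly or wholly inside the GENCODE bounds given above, which begin farther upstream. CXCL1, CXCL2 and CXCL3 share this stretch almost letter for letter. Their log2 fold changes between the A101D number ranges were -0.12, 1.499 and 1.07, and whether these letters bear on them was not tested. CCL2 and LIF are named only. Capitals mark GGNNTTNCC, a pattern of the kind NF-kB binds, and TATAAA, the TATA box, searched on both strands. Each sequence is given on the strand of its gene.
CXCL1 (chr4:73869293-73869372, plus strand): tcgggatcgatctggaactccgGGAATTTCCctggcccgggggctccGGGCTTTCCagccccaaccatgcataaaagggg
CXCL2 (chr4:74099216-74099295, minus strand): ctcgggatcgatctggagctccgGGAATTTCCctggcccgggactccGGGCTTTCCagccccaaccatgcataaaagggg
CXCL3 (chr4:74038710-74038789, minus strand): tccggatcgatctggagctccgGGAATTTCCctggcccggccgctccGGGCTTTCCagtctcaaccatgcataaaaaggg
CXCL8 (chr4:73740469-73740548, plus strand): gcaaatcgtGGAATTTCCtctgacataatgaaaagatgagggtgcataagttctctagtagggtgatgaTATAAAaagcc
IL6 (chr7:22727100-22727179, plus strand): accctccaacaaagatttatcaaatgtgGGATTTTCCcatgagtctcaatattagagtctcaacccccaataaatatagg
CCL20 (chr2:227813742-227813821, plus strand): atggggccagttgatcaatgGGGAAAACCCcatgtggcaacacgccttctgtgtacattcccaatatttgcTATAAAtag
IL1A (chr2:112784514-112784593, minus strand): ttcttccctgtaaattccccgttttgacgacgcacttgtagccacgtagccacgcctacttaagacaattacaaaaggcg
IL1B (chr2:112836800-112836879, minus strand): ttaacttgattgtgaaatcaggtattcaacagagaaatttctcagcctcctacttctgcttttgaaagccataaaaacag

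Over the 120 bases before the start site, CXCL1 was 93.4% identical to CXCL2 and 90.8% to CXCL3, CXCL2 was 88.5% identical to CXCL3, and CXCL1 was 46.1% identical to CXCL8. In the 250 bases before the start, GGNNTTNCC begins at -78 and -53 in CXCL1 and CXCL3, at -77 and -53 in CXCL2, at -91 in CXCL8 and at -72 in IL6. In CCL20 it occurs on the other strand in overlapping matches at -80 and -79. The pattern is in 15% of all 35116 RefSeq windows of that length. It was not found in the IL1A and IL1B windows, which says only that these letters are not there. TGANTCA, the kind of site AP-1 binds (6.57% of windows), begins at -137 in CXCL8, at -12 in the first RefSeq entry of IL1A and at -105 and -55 in its second. Apart from the CCL20 pair, no matches overlap. TTGCNNAA, of the kind C/EBP factors bind (9.05% of windows), begins at -188 in CXCL2, -155 in IL6 and -215 in IL1B. TATAAA (10.7% of windows) begins at -31 in CXCL8, -29 in CCL20 and -239 in the first entry of IL1A.

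The lines differed in which of the 10 transcripts was most abundant (CPM per kb of exon, so that levels of different genes can be compared). In A101D the order of mean levels was CCL2, LIF, CXCL8, CXCL1, IL1A, IL6, CCL20, IL1B, CXCL2 and CXCL3. CCL2 stood at 89.6 ± 26.1, LIF at 46.2 ± 3.18 and CXCL8 at 37.4 ± 5.37 CPM per kb (SD, n = 8), and CXCL3 closed the order at 0.207 ± 0.0837. In MeWo the order was CXCL1, CXCL8, IL6, LIF, CXCL2, CXCL3, CCL20, CCL2, IL1A and IL1B. CXCL1 stood at 45.8 ± 2.68, CXCL8 at 14.1 ± 1.82 and IL6 at 3.89 ± 0.342 CPM per kb, and IL1B closed the order at 0.0771 ± 0.0417. CXCL1 made up 61.8% to 66.5% of the summed CPM per kb of the 10 genes in MeWo libraries and 8.95% to 11.6% in A101D libraries. CCL2 made up 31.8% to 51.3% in A101D and 0.195% to 0.447% in MeWo.

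Neighbours in these orders were not always separated. Over all 8 A101D libraries, LIF overlapped CXCL8 in CPM per kb, IL1A overlapped IL6, and the run from CCL20 through IL1B and CXCL2 to CXCL3 overlapped too. The overlaps of CCL20 with IL1B and of CXCL2 with CXCL3 appeared when the number ranges were joined and in neither range alone. Within A101D replicates 1 to 4 the overlapping neighbours were IL6 with IL1A and CXCL2 with IL1B, and within replicates 5 to 8 LIF with CXCL8 alone. In MeWo the overlapping neighbours were LIF with CXCL2, CXCL2 with CXCL3, CCL2 with IL1A, and IL1A with IL1B. IL1A held the sixth place in A101D replicates 1 to 4, at 3.69 ± 0.198 CPM per kb, and the fifth in replicates 5 to 8, at 16.5 ± 0.899 (SD, n = 4 each). IL1B and CXCL2 also exchanged places, with CXCL2 in the eighth place in replicates 1 to 4 and IL1B in replicates 5 to 8.

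**Figure D1:**
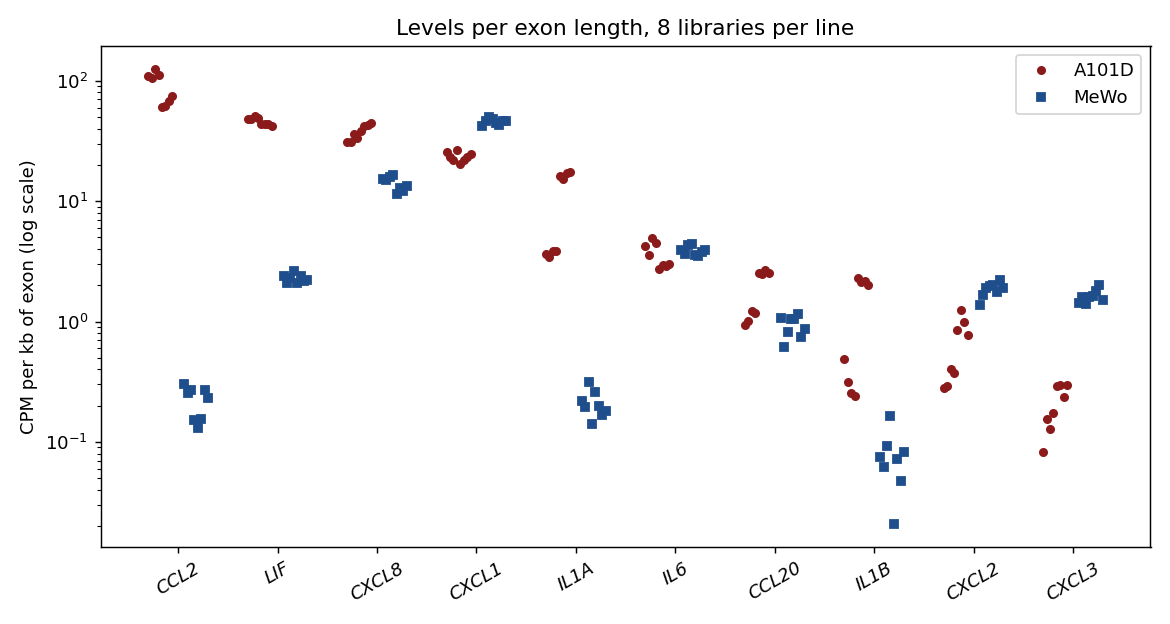
Level of each gene per exon length (CPM per kb of exon, log axis) in the 8 libraries of A101D (red circles, replicates 1 to 8 from left to right) and of MeWo (blue squares), with genes in order of their mean in A101D. CCL2 and LIF lead in A101D, while CXCL1 leads in MeWo at 42 to 50.1 CPM per kb.

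Between the lines (MeWo against A101D, all 16 libraries), 3 of the 10 genes were higher in MeWo and 6 were lower at a limma adjusted p under 0.05, and IL6 was not called. Over all 21569 genes tested, 37.5% were called higher and 41.0% lower, so most genes differed between these lines, and the share of members called is near that background. One of the 6 lower genes, IL1B, passed the filter through A101D, so it had to be lower in MeWo. The members' log2 fold changes ran from -8.61 (CCL2) to 3.03 (CXCL3).

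Between the number ranges, A101D replicates 5 to 8 against 1 to 4, 6 of the 10 genes were higher (CXCL2, CXCL3, CXCL8, IL1A, IL1B and CCL20), 3 were lower (IL6, CCL2 and LIF), and CXCL1 was not called. The background was 33.1% called higher and 32.4% called lower in the same comparison. In MeWo the same comparison called no member higher and 1 lower, CXCL8, against a background of 6.16% and 7.45%. At an unadjusted p under 0.05 limma gave 0 members higher and 1 lower in MeWo, limma-trend likewise called 0 higher, and the smallest unadjusted p after that of CXCL8 was 0.0761, for IL1B. With total counts only, 2041 genes were called higher and 1037 lower in this MeWo comparison, and with median-of-ratios factors 1012 and 2005, against 1329 and 1606 here.

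**Figure D2:**
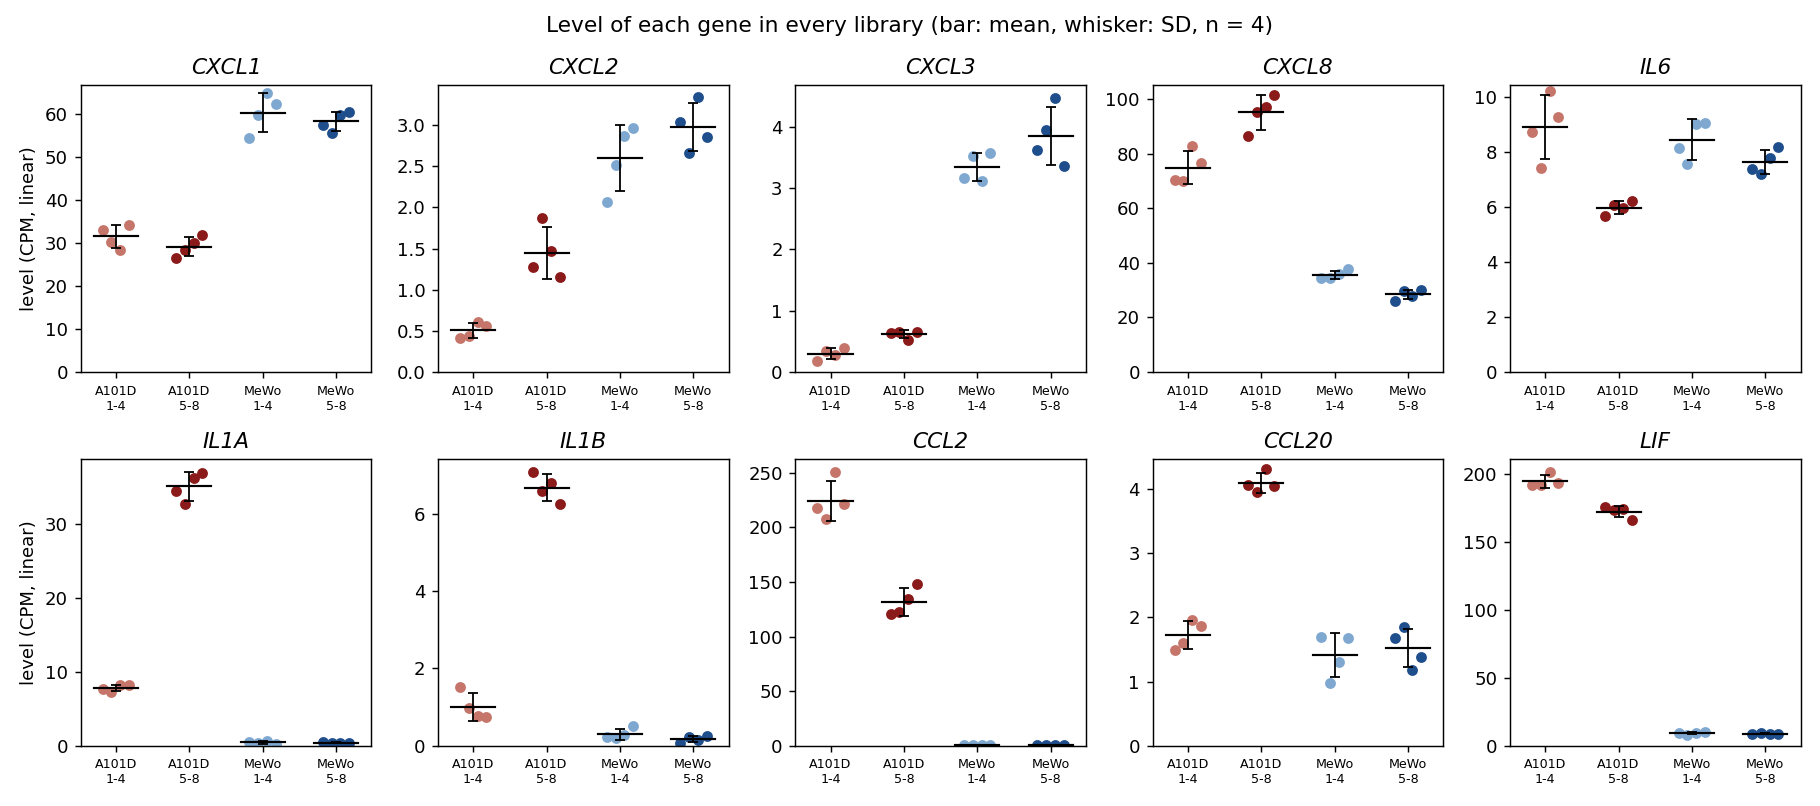
CPM of each gene (linear axes, each from 0) in every library, by line and range of replicate numbers. Points are libraries, bars are means and whiskers are SD over 4 libraries. IL1A and IL1B were highest in A101D replicates 5 to 8, at 32.6 to 36.9 and 6.27 to 7.08 CPM, and CCL2 and LIF were higher in all A101D libraries than in any MeWo library.

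CXCL1, the growth-regulated alpha chemokine, was 33.2, 30.4, 28.5 and 34.4 CPM in A101D replicates 1 to 4 and 26.5, 28.5, 30.01 and 31.9 in replicates 5 to 8. In MeWo it was 54.4, 59.9, 65.0 and 62.4 CPM in replicates 1 to 4 and 57.5, 55.7, 59.9 and 60.5 in replicates 5 to 8. The lowest MeWo library exceeded the highest A101D library, and the number ranges overlapped in both lines. The log2 fold change between the lines was 0.97 (SE 0.055, 95% interval 0.85 to 1.08, adjusted p = 2.14e-11 in limma). Between the number ranges it was -0.12 in A101D (interval -0.24 to 0.01, adjusted p = 0.0947) and -0.05 in MeWo (interval -0.15 to 0.06, adjusted p = 0.654). Without A101D replicate 3 or replicate 8 the A101D value passed the threshold, at -0.15 (adjusted p = 0.0259) and -0.14 (adjusted p = 0.0468).

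CXCL2 and CXCL3, the close paralogs of CXCL1, were scarce in A101D. CXCL2 stood at 0.418, 0.439, 0.605 and 0.564 CPM in A101D replicates 1 to 4 and at 1.28, 1.87, 1.47 and 1.16 in replicates 5 to 8. The 8 MeWo libraries ran from 2.07 to 3.34 CPM, with a median of 2.86. The 3 sets did not overlap, since the second A101D range lay above the first and all MeWo libraries above both. The line difference was 1.68 on the log2 scale (SE 0.256, adjusted p = 1.17e-05), and the A101D range difference was 1.499 (SE 0.239, adjusted p = 6.86e-07).

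CXCL3 was at 0.183, 0.345, 0.285 and 0.386 CPM in A101D replicates 1 to 4 and at 0.641, 0.658, 0.52 and 0.66 in replicates 5 to 8, which are 7 to 25 counts per library. In MeWo it ran from 3.12 to 4.46 CPM (98 to 151 counts), with a median of 3.54. The A101D ranges did not overlap, and the MeWo libraries lay far above them. The line difference was 3.03 (SE 0.203, adjusted p = 2.22e-10), the largest upward value among the 10 genes, and the A101D range difference was 1.07 (SE 0.294, adjusted p = 0.00154). In MeWo the ranges differed by 0.20 for CXCL2 (adjusted p = 0.385) and by 0.19 for CXCL3 (adjusted p = 0.301), neither called.

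Reads of the 3 paralogs can be hard to place. Of the 50-base words in their exons, 4.81% in CXCL1, 12.5% in CXCL2 and 6.01% in CXCL3 also occur in another of the 3, so a read of that length from these stretches could not be placed by sequence alone. CXCL1 was the most abundant of them in both lines, at 20.5 to 26.5 CPM per kb in A101D against 0.279 to 1.25 for CXCL2 and 0.0824 to 0.297 for CXCL3. The number ranges of CXCL1 overlapped where those of CXCL2 and CXCL3 in A101D did not.

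CXCL8, interleukin-8, was higher in A101D, and it was the member whose range differences had opposite signs with both called. It stood at 70.2, 70.2, 82.7 and 76.4 CPM in A101D replicates 1 to 4 and at 86.5, 95.4, 97.0 and 101.4 in replicates 5 to 8. In MeWo it stood at 34.6, 34.3, 36.0 and 37.7 CPM in replicates 1 to 4 and at 26.2, 29.5, 27.9 and 30.2 in replicates 5 to 8. The ranges did not overlap in either line, with replicates 5 to 8 above 1 to 4 in A101D and below them in MeWo. The range difference was 0.35 in A101D (SE 0.048, adjusted p = 7.9e-08) and -0.32 in MeWo (SE 0.060, adjusted p = 0.000301). The line difference was -1.41 over all libraries (SE 0.096, adjusted p = 2.88e-10), a 2.65-fold lower level in MeWo.

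CCL2, monocyte chemoattractant protein 1, had the largest difference between the lines. It was 218, 208, 250 and 221 CPM in A101D replicates 1 to 4 and 121, 122, 134 and 148 in replicates 5 to 8. MeWo libraries ran from 0.258 to 0.604 CPM with a median of 0.485, which is 8 to 21 counts per library against 3965 to 8340 in A101D. The A101D ranges did not overlap, with the first higher. The line difference was -8.61 on the log2 scale (SE 0.428, adjusted p = 3.45e-12), a 392-fold lower level in MeWo. The A101D range difference was -0.77 (SE 0.057, adjusted p = 9.42e-11), a 1.71-fold lower level in replicates 5 to 8. In MeWo the interval of the range difference ran from -1.36 to 0.74 (adjusted p = 0.767), so a change of the A101D size was not detectable at these counts.

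CCL20, the ligand of CCR6, was at 1.49, 1.60, 1.96 and 1.87 CPM in A101D replicates 1 to 4 and at 4.06, 3.95, 4.30 and 4.04 in replicates 5 to 8. The MeWo values ran from 0.984 (replicate 2) to 1.85 CPM, with a median of 1.53. MeWo libraries overlapped A101D replicates 1 to 4 and lay below replicates 5 to 8. The A101D range difference was 1.25 (SE 0.143, adjusted p = 4.88e-10), a 2.38-fold higher level. Over all libraries the line difference was -0.88 (SE 0.264, adjusted p = 0.00593). It was -0.29 in replicates 1 to 4 (adjusted p = 0.135) and -1.44 in replicates 5 to 8 (adjusted p = 1.28e-11).

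IL1A and IL1B, the genes of the IL-1 cytokines, had the largest range differences of the set. IL1A stood at 7.68, 7.31, 8.19 and 8.16 CPM in A101D replicates 1 to 4 and at 34.5, 32.6, 36.2 and 36.9 in replicates 5 to 8. In MeWo it ran from 0.299 to 0.668 CPM with a median of 0.416, which is 10 to 21 counts per library. The 3 sets were far apart, and within each A101D range the libraries lay close together. The range difference in A101D was 2.16 (SE 0.068, adjusted p = 3.6e-27), a 4.47-fold higher level in replicates 5 to 8. In MeWo it was -0.07 (interval -0.68 to 0.53, adjusted p = 0.925).

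IL1B stood at 1.51, 0.972, 0.783 and 0.742 CPM in A101D replicates 1 to 4 and at 7.08, 6.58, 6.79 and 6.27 in replicates 5 to 8. In MeWo it ran from 0.0646 to 0.509 CPM with a median of 0.227, which is 2 to 17 counts per library. The A101D ranges did not overlap, and all MeWo libraries lay below both. The A101D range difference was 2.74 (SE 0.177, adjusted p = 4.92e-17), a 6.68-fold higher level. In MeWo it was -0.78 (interval -1.64 to 0.09, adjusted p = 0.255).

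Because the A101D libraries fell into separate sets for both genes, the line difference over all 16 libraries had wide errors. It was -5.24 for IL1A (SE 0.821, adjusted p = 1.55e-05). For IL1B, which passed the low-count filter through A101D and so had to differ, the value of -3.53 (SE 0.851) is a description. Within replicates 1 to 4 the values were -4.10 (SE 0.219) and -1.74 (SE 0.318), and within replicates 5 to 8 they were -6.34 (SE 0.212) and -5.25 (SE 0.335). Per exon length IL1A was the more abundant of the pair in A101D, at 16.5 and 2.16 CPM per kb in replicates 5 to 8.

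IL6, an activator of STAT3 and of the acute-phase response, was the member not called between the lines over all libraries. It stood at 8.72, 7.43, 10.2 and 9.29 CPM in A101D replicates 1 to 4 and at 5.67, 6.05, 5.98 and 6.21 in replicates 5 to 8. In MeWo it ran from 7.19 to 9.07 CPM with a median of 7.96. The second A101D range lay below the first and below every MeWo library, while the first overlapped MeWo. The A101D range difference was -0.56 (SE 0.090, adjusted p = 7.95e-07), opposite in sign to that of IL1A, IL1B and CXCL8. The line difference was 0.15 over all libraries (interval -0.10 to 0.40, adjusted p = 0.265), -0.07 in replicates 1 to 4 (adjusted p = 0.473) and 0.35 in replicates 5 to 8 (adjusted p = 0.000609).

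LIF, leukemia inhibitory factor, was 191, 192, 201 and 193 CPM in A101D replicates 1 to 4 and 175, 173, 174 and 166 in replicates 5 to 8. In MeWo it ran from 8.29 to 10.4 CPM with a median of 8.96. The lines were far apart and the A101D ranges did not overlap. The line difference was -4.34 (SE 0.061, adjusted p = 1.58e-19), a 20.2-fold lower level in MeWo. The A101D range difference was small, at -0.18 (SE 0.033, adjusted p = 1.19e-05), and was -0.10 with upper-quartile factors and -0.07 with total counts only, both called.

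IL6 and LIF overlap genes on the other strand, and without a stated strand setting reads in the shared stretches cannot be assigned to either gene. The exons of IL6 share 428 bases with IL6-AS1 and 46 with STEAP1B. STEAP1B held 1323 to 1594 and 1153 to 1379 counts in the A101D ranges, and 420 to 469 and 374 to 486 in those of MeWo. How many of its reads fall in the 46 shared bases was not tested. IL6-AS1 held 87 to 107 counts in A101D replicates 1 to 4 and 124 to 159 in replicates 5 to 8, where IL6 held 237 to 334 and 186 to 230. The exons of LIF share 175 bases with LIF-AS2 and 92 with LIF-AS1. These genes held at most 94 and 21 counts in any A101D library, against at least 5656 for LIF.

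Whether the number ranges differed alike in the lines was tested as the A101D range difference minus the MeWo one. Over all genes 23.2% were called higher and 25.9% lower in this test. The 6 members called higher were CXCL2 (1.30), CXCL3 (0.88), CXCL8 (0.67), IL1A (2.24), IL1B (3.52) and CCL20 (1.15 on the log2 scale). IL6 was called lower, at -0.42 (SE 0.124, adjusted p = 0.0048). Among the called members IL1B had the largest error (SE 0.461, adjusted p = 2.52e-08), and its value rests in MeWo on 65 counts over 8 libraries. CXCL3 had the largest adjusted p of the 7, at 0.019, and without A101D replicate 1 it was 0.64 with an adjusted p of 0.111. CXCL1, CCL2 and LIF were not called, with intervals from -0.24 to 0.09, -1.52 to 0.60 and -0.26 to 0.08.

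**Figure D3:**
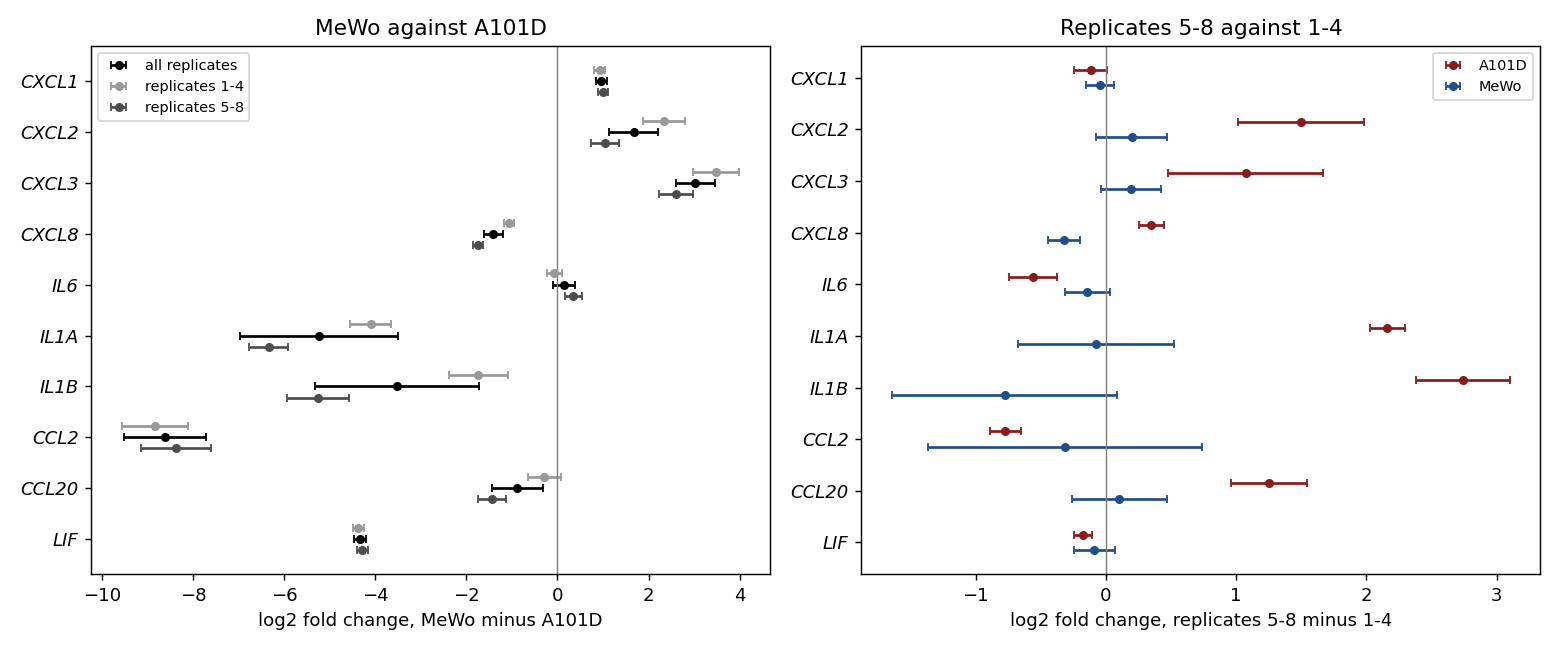
Log2 fold changes of the 10 genes with 95% intervals from limma. On the left, MeWo minus A101D over all replicates and within each range of replicate numbers, where CCL2 lies near -8.61 and CXCL3 at 3.03. On the right, replicates 5 to 8 minus 1 to 4 in A101D (red) and MeWo (blue), where IL1A (2.16) and IL1B (2.74) stand farthest to the right in A101D.

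Within replicates 1 to 4 the lines differed in 8 members, with CXCL1, CXCL2 and CXCL3 higher in MeWo and CXCL8, IL1A, IL1B, CCL2 and LIF lower (background 37.1% higher and 42.3% lower), IL1B with the filter's limit given above. Within replicates 5 to 8 all 10 were called, with IL6 joining the higher genes and CCL20 the lower ones (background 40.3% and 43.9%). The CXCL2 difference was 2.34 (SE 0.227) in replicates 1 to 4 and 1.04 (SE 0.155) in replicates 5 to 8. The CXCL8 difference was -1.07 (SE 0.054) and -1.74 (SE 0.055). LIF differed by -4.38 and -4.29 (SE 0.059 each), and CXCL1 by 0.93 and 1.00 (SE 0.057 each).

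Of 15 genes for the receptors of these ligands 9 were tested, and 8 were lower and 1 higher in MeWo (background 41.0% and 37.5%). Of the 8, 3 reached the filter's minimum in 4 or more libraries of A101D alone, so their direction was set by the filter and the count is a description. IL1R2, the decoy receptor that binds IL-1 without signalling, is among these 3, at no more than 0.103 CPM in any MeWo library. It was 5.73 ± 0.963 CPM in A101D and 0.0472 ± 0.0311 in MeWo (SD, n = 8). IL1R1, the signalling receptor, was 38.3 ± 11.7 and 6.04 ± 0.714 CPM. LIFR, which pairs with gp130 to bind LIF, was 84.4 ± 18 and 18.1 ± 1.05 CPM. Between the A101D ranges 4 receptor genes were higher and 3 lower (background 33.1% and 32.4%). Of the 4, 1 had passed the filter through replicates 5 to 8 alone, which set its direction. IL6R fell from 40.3 ± 3.39 CPM in replicates 1 to 4 to 15.6 ± 0.704 in replicates 5 to 8 and IL1R1 from 49.2 ± 1.89 to 27.5 ± 1.88, while IL6ST rose from 261 ± 12.7 to 397 ± 9.36 (n = 4 each).

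Other cytokines and chemokines, a list of 37 genes with 23 tested, had 16 lower and 4 higher in MeWo (background 41.0% and 37.5%). Of the 16, 10 had passed the filter through A101D alone and had to be lower. CSF1, the macrophage growth factor, was 95.9 ± 17.3 CPM in A101D and 2.3 ± 0.319 in MeWo, and IL24 was 34.7 ± 5.68 and 1.83 ± 0.184. Between the A101D ranges 14 were higher and 2 lower (background 33.1% and 32.4%). Of the 14, 5 had passed the filter through replicates 5 to 8 alone. CLCF1, an IL-6 family cytokine, was 3.54 ± 0.356 CPM in replicates 1 to 4 and 11.9 ± 1.78 in replicates 5 to 8. CX3CL1, fractalkine, was 6.86 ± 0.745 and 14.7 ± 0.874, while TGFB1 was lower at 9.06 ± 1.16 and 5.99 ± 0.45.

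Of 32 genes of NF-kB and IL-1 signalling, all tested, 16 were higher and 12 lower in MeWo (background 37.5% and 41.0%). Their median log2 fold change was 0.13. IRAK3, an inhibitor of IL-1 receptor signalling, was 32.8 ± 1.04 CPM in A101D and 2.62 ± 0.358 in MeWo. Between the A101D ranges 16 were higher and 11 lower (median 0.07, background 33.1% and 32.4%). TNFAIP3, which encodes the NF-kB inhibitor A20, was 20 ± 1.57 CPM in replicates 1 to 4 and 45.9 ± 2.13 in replicates 5 to 8, and TRAF6, an adaptor of the IL-1 receptor, was 18.1 ± 1.35 and 30.9 ± 0.736.

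NF-kB target genes other than cytokines, 24 tested of 28, had 18 lower and 5 higher in MeWo (background 41.0% and 37.5%). Of the 18, 6 had passed the filter through A101D alone. MMP1, an interstitial collagenase, was 99.9 CPM in A101D, from 53.4 to 139, and 0.763 in MeWo, from 0.445 to 1.05. TRAF1 was 130 CPM in A101D, from 89.4 to 166, and 4.71 in MeWo, from 4.08 to 5.06. Between the A101D ranges 16 were higher and 6 lower (background 33.1% and 32.4%). Of these 16, 3 had passed through replicates 5 to 8 alone. PTX3, a soluble pattern recognition protein, rose by 1.87 on the log2 scale (SE 0.067) and PTGS2, cyclooxygenase 2, by 1.52 (SE 0.098).

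AP-1, C/EBP and stress-induced transcription factors, 18 tested of 19, had 7 higher and 5 lower in MeWo (median 0.12, background 37.5% and 41.0%). In A101D replicates 5 to 8, 11 were higher and 5 lower (median 0.48, background 33.1% and 32.4%). CEBPG stood at 34.9 ± 1.37 CPM in A101D replicates 1 to 4 and at 226 ± 18.4 in replicates 5 to 8. CEBPB, a factor known to act on the IL6 gene, stood at 31.7 ± 3.36 and 110 ± 7.49, and EGR1 at 1.52 ± 0.167 and 9.26 ± 1.63. In MeWo the range difference was 0.60 for CEBPG and 0.47 for CEBPB (limma adjusted p = 1.13e-09 and 1.84e-07). For EGR1 it was 0.16, not called. Of this list, 6 were higher and 1 lower in MeWo replicates 5 to 8 (background 6.16% and 7.45%). FOS, an AP-1 subunit, was 9.73 ± 3.14 CPM in A101D and 43.9 ± 2.39 in MeWo, while ATF3 was 28.1 ± 11 and 4.49 ± 0.662.

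The JAK-STAT list, 12 genes all tested, had 7 lower and 0 higher in A101D replicates 5 to 8 by limma (median -0.23). Over all genes 32.4% were called lower and 33.1% higher there. At an unadjusted p under 0.05, 2 of the 12 were higher, JAK2 and SOCS1. JAK1 fell by 0.43 on the log2 scale (SE 0.032), and SOCS3, a feedback inhibitor, fell from 32 ± 2.57 to 21.8 ± 0.623 CPM. Between the lines 4 were higher and 7 lower in MeWo (background 37.5% and 41.0%). Of the 7, 1 had passed the filter through A101D alone. SOCS3 was 26.9 ± 5.7 CPM in A101D and 79.5 ± 4.43 in MeWo. Of 15 genes that control cytokine mRNA decay, all tested, 3 were higher and 8 lower in A101D replicates 5 to 8 (median -0.33). Against A101D over all libraries, 7 were higher and 5 lower in MeWo (median 0.11). The backgrounds are those just given for each comparison. ZFP36L1, which promotes the decay of AU-rich transcripts, had a log2 fold change of 0.72 (SE 0.043) and DUSP1, a phosphatase of MAP kinases, one of -0.64 (SE 0.096) in that A101D comparison.

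Of 14 genes of IL-1 processing and the inflammasome 13 were tested, with 7 lower and 4 higher in MeWo (background 41.0% and 37.5%). Of the 7, 2 had passed the filter through A101D alone. In A101D replicates 5 to 8, 5 were higher and 6 lower (median -0.02, background 33.1% and 32.4%). PYCARD, the inflammasome adaptor, was 29 CPM in A101D, from 19.9 to 37.4, and 3.71 in MeWo, from 2.93 to 4.29. AIM2, a DNA sensor, was 12.4 CPM, from 8.24 to 16.2, and 0.846, from 0.546 to 1.01. Between the A101D ranges both were lower, with log2 fold changes of -0.61 (SE 0.076) for AIM2 and -0.56 (SE 0.074) for PYCARD. CASP1, the enzyme that cuts the IL-1 beta precursor, was higher, from 0.726 to 1.89 CPM (log2 fold change 1.36, adjusted p = 4.24e-07), as was NLRC4, an inflammasome sensor (1.64, adjusted p = 8.04e-11). NINJ1, which acts in the rupture of dying cells, was 0.65 higher (SE 0.040).

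**Figure D4:**
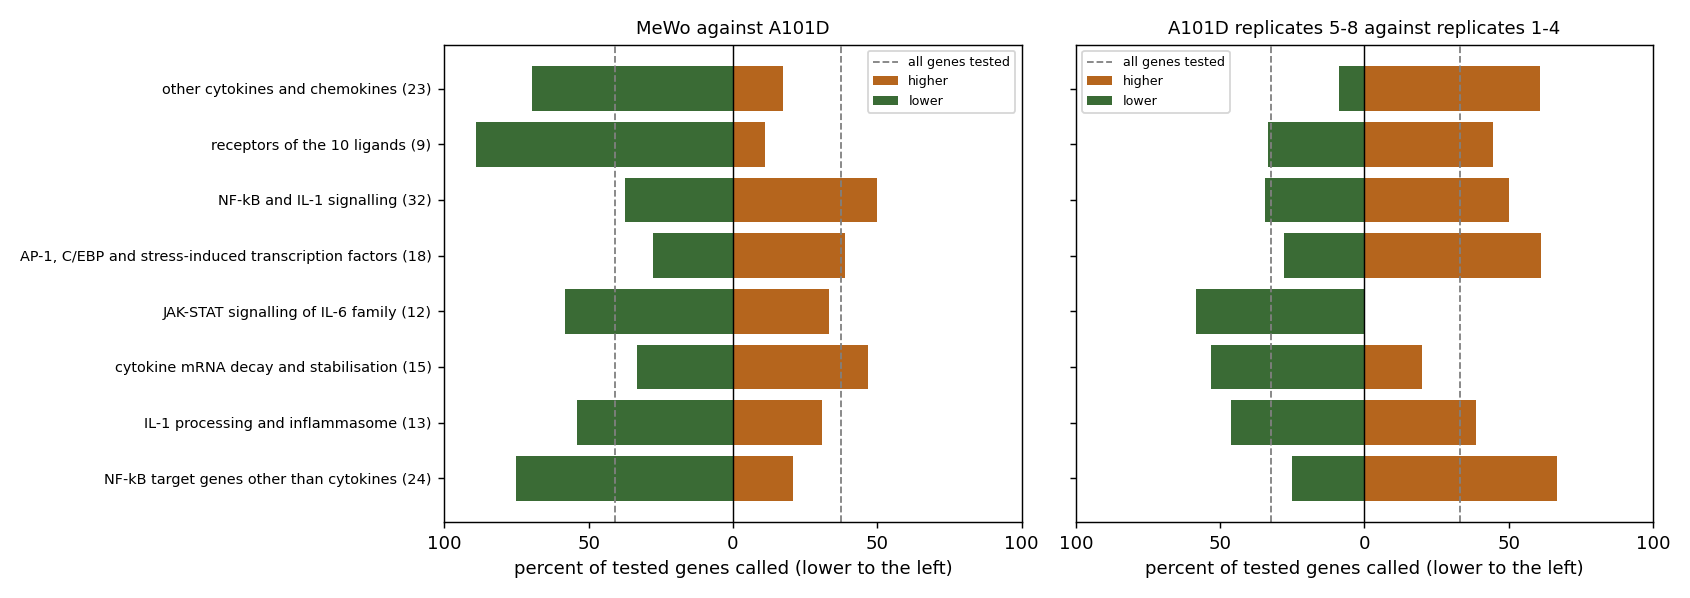
Percent of the tested genes of each list called higher (right, brown) or lower (left, green) by limma in MeWo against A101D and in A101D replicates 5 to 8 against 1 to 4. The number tested is in brackets and dashed lines mark the percent over all genes. Bars include genes that passed the filter through 1 group alone, whose direction it set, among them 3 of the receptors and 10 of the other cytokines lower in MeWo. Receptors stand at 8 of 9 lower in MeWo, and NF-kB target genes at 16 of 24 higher in A101D replicates 5 to 8.

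Across the 16 libraries, the genes whose log2 CPM followed the mean of the 10 standardised members most closely were MAP3K4-AS1 (Pearson r 0.974), CBLB (0.969), CCN1 (0.964), THBS1-IT1 (0.964) and COX19 (0.961). CCN1, a secreted matrix protein, averaged 65.1 and 128 CPM in the A101D ranges and 36.1 and 36.3 in those of MeWo. Among the genes most like CXCL8 were THBS1 (0.995), F2R, CRIM1 and WWC2 (0.992 each). THBS1, thrombospondin 1, averaged 4933 and 7462 CPM in the A101D ranges and 1643 and 1329 in those of MeWo. These values describe 16 points that fall into sets by line and number range and share libraries, so they carry no test.

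Markers of other cell types were measured because leukocytes, endothelial cells and fibroblasts make the same cytokines. Of 12 leukocyte markers 5 were tested, and the summed level of all 12 was 6.76 to 8.49 CPM in A101D replicates 1 to 4, 10.8 to 12.6 in replicates 5 to 8 and 3.95 to 5.04 in MeWo, with CD3D at 0 counts in A101D replicates 1 to 4 and CD3D and MS4A1 at 0 in MeWo. The 6 fibroblast markers, all tested, summed to 924 to 1039 CPM in A101D replicates 1 to 4, 583 to 653 in replicates 5 to 8 and 76.5 to 86.2 in MeWo. COL1A2 made up nearly all of the A101D sum, at 956 CPM in replicates 1 to 4 against 0.486 in MeWo. LUM (1.3 against 72.6 CPM) and DCN (0.00742 against 3.91) were higher in MeWo, as was COL1A1. DCN had passed the filter through MeWo alone, which set its direction. COL3A1 was higher in MeWo in replicates 1 to 4 (0.0538 against 0.365 CPM). In replicates 5 to 8 it was not called (0.372 against 0.357 CPM, limma adjusted p = 0.843). The 6 endothelial markers, all tested, summed to 108 to 125, 147 to 156 and 3.19 to 3.62 CPM. KDR made up most of the A101D sums, at 111 and 123 CPM in its ranges. VWF (3.71 and 15.8) and TEK (2.32 and 11.8) were next. PECAM1 (0.196 and 0.505), CDH5 (0.377 and 1.09) and CLDN5 (0.291 and 0.0556) were the lowest. Of 6 keratinocyte markers 2 were tested, and all 6 summed to 34 to 36.8, 39.6 to 43 and 19.6 to 25 CPM, with KRT10 above 1 CPM in every group and KRT1 at 0 counts in A101D. None of the 4 lists was without counts, and their part in the differences of the 10 genes was not tested. Mitochondrial genes took 1.71% to 1.92% of counts in A101D replicates 1 to 4, 1.93% to 2.33% in replicates 5 to 8 and 1.28% to 1.45% in MeWo.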

How the data were processed

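Each line has its own table, deposited by the authors, of gene counts in whole numbers (a cell joins an identifier and its count), counted over exons from a sorted alignment of each library, per the file headers, and not normalized. The submitters' processing notes name Trimmomatic 0.39-1, STAR 2.7.1a, featureCounts 2.0.0 and GRCh38. Strand setting and annotation release: not given in the sources used here.

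Identifiers and counts were separated, and symbols came from a table holding 60357 of the 60676 identifiers. Genes at 0.298 CPM (10 counts at the median depth) in 4 or more libraries, and with at least 15 counts summed, were tested with limma 3.58.1 in R 4.3.3 (voom weights, robust moderation, factors from trimmed means with trims of 30% and 5%, two-sided, Benjamini-Hochberg over 21569 genes, threshold 0.05). Lines were compared over 16 libraries, and the ranges and their interaction in a fit of 4 groups. limma was tested on simulated counts. Spreads and intervals over libraries include counting error, and few counts limit IL1A, IL1B and CCL2 in MeWo.

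The 10 genes, the gene lists, the markers, the patterns searched and the number ranges were chosen with earlier results of these data known. The genes named besides the 10 are, per list, up to 3 with the largest change in the line comparison and up to 3 in the A101D range comparison among called genes with at least 5 CPM, and the 5 most alike to the mean of the 10 and to CXCL8 (log2 CPM with a pseudocount of 0.1, mean of at least 1 CPM). JAK2, SOCS1, CASP1, NLRC4 and single markers were named after their values were seen, and some genes that the rule takes are not reported here. Same-numbered libraries of the lines did not pair (correlations of deviations from the line mean 0.031 to 0.144). Alternatives were other scalings, filters, a threshold of 0.01, limma-trend, the replicate block, the number range as a covariate and leaving out libraries.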

Additional observations from a re-analysis of the deposited data

Results flagged for a closer look

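The difference between the number ranges differed between the lines, by limma's test of that difference, for 7 of the 10 genes, against a background of 23.2% of all genes called higher and 25.9% called lower. The A101D difference minus the MeWo difference was 3.52 on the log2 scale for IL1B, 2.24 for IL1A, 1.30 for CXCL2, 1.15 for CCL20, 0.88 for CXCL3, 0.67 for CXCL8 and -0.42 for IL6. CXCL8 had called differences of opposite sign in the lines, while for the other 6 the MeWo difference was not called. Without A101D replicate 1 the CXCL3 value was 0.64 with an adjusted p of 0.111.

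CXCL3 in A101D replicate 7 met Dixon's criterion for a value apart from its group. It was 0.52 CPM (18 counts) there and 0.641 to 0.66 CPM (21 to 25 counts) in replicates 5, 6 and 8. The gap was 0.863 of the range, above Dixon's value of 0.829 for 4 libraries. Of 60 groups checked, which share libraries, 1 was marked, where chance gives about 3.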

How the results depend on the processing

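Over the 10 genes in the 6 comparisons, 1001 of 1010 values under the alternatives kept their direction and their side of the threshold. The 5 reversals were in values that were not called. IL6 between the lines in replicates 1 to 4 (-0.07) ran from -0.148 to 0.021 when 1 library was left out, and was 0.021 without A101D replicate 3 and 0.006 without MeWo replicate 2. The MeWo range difference of CCL20 (0.10) ran up to 0.196 with 1 library left out and was -0.059 without MeWo replicate 2 and -0.016 without replicate 6, and that of IL1A (-0.07) ran from -0.284 to 0.097, the latter without replicate 3. CXCL3 in the test between lines of the range difference had an adjusted p of 0.019 and so missed the threshold of 0.01. In MeWo the genes called higher between the ranges (1329) numbered 699 at a threshold of 0.01, 2041 with total counts only, 600 without the low-count filter and 779 to 1341 with 1 library left out. Those called lower (1606) numbered 896, 1037, 1292 and 1177 to 2501, the last without replicate 4. With total counts only the median over all genes in the A101D range comparison moved from 0.01 to 0.11, and no member changed sign or call. With the replicate number as a block the line comparison called 3 members higher and 6 lower, the same counts, and 8041 and 9068 genes against 8093 and 8844. Of the 8 numbers, 3 correlated best with their own number in the other line, and the block changed no call of a member. The cause of these shifts was not tested. Count tests were planned only for columns that pass as counts as deposited. They were not run, since each deposited cell joins an identifier and a count, though the separated counts were whole numbers. An alternative for members that miss the filter was void. Few counts limit what MeWo shows for IL1A, IL1B and CCL2 and what A101D shows for CXCL3.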
